A study of Mus musculus with 4 samples.

Results

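Monocyte-derived macrophage genes are described here in the accessible chromatin of mouse brain parenchymal macrophages. The set holds 31 genes, named with earlier results of these data known, that are typical of monocytes and of the macrophages they give rise to. A peak of open chromatin belonged to a gene if its centre lay inside the gene body, or if that gene was the nearest protein-coding gene within 100 kb. By this rule 187 of the 74695 merged peaks belonged to 30 of the 31 genes. Each merged peak joined the overlapping peaks called in 4 ATAC-seq libraries, an assay in which the Tn5 transposase cuts open chromatin. The libraries were labelled MDM1, MDM2, YSM1 and YSM2, so that 2 libraries stood in each group. MDM was read as monocyte-derived macrophage from the series title, and the labels leave YSM without a full name. Every library, in both groups, was labelled Ms4a3-Ai9 for genotype and DR-3x for treatment. Ms4a3 is active in granulocyte-monocyte progenitors and Ai9 is a fluorescent reporter that Cre recombinase switches on. What DR-3x stands for, the age of the mice, which cells carried the reporter and whether libraries came from separate or pooled animals are not stated in the labels.

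Circulating monocytes come from bone marrow progenitors, whereas most resident macrophages of the brain parenchyma descend from embryonic precursors. Monocytes that enter the brain can take on many features of the resident cells while keeping some genes of their origin active. The members fall into surface proteins of monocytes (Ly6c1, Ly6c2, Clec12a), lysozymes and other host-defence genes, calcium-binding S100 proteins and their annexin partners, matrix and cytoskeletal genes, interferon-induced transmembrane (Ifitm) genes, the Tmem176 pair, and receptors and enzymes. In ATAC-seq an open gene start marks a promoter that is accessible, and open sites inside or outside a gene can be enhancers. Accessibility is not expression, and no RNA was analysed here.

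The authors' differential lists named 3 of the 187 member peaks as MDM peaks, at Gpr65, Lyz1 and Myof, and 0 as YSM peaks. Going by the list names, a listed peak was taken to be more open in the group its list is named for. The MDM share was 1.60%, where 0.145% of all merged peaks were in the MDM list (108 of 74695). At that overall share, 187 peaks would hold 0.27 MDM-listed peaks. The YSM share was 0 of 187. A limit of 3 counts would be 1.60%, and the exact 95% interval of this share reached 1.95%. Of all merged peaks, 1.48% were in the YSM list (1104 of 74695), and at that share 2.76 of 187 would be. An absence of YSM-listed peaks below the overall share was therefore not detectable with this number of peaks. The exact (Clopper-Pearson) 95% interval of the MDM share ran from 0.332% to 4.62%. It covers counting error only and treats peaks as independent, which neighbours in 1 gene are not. The interval does not allow for how the members were chosen. Lyz1 and Myof were already known to hold a listed peak when the members were named. The count of 3 is therefore a description. Neither that count, set against 0.27, nor the interval is independent evidence of a direction. The files used here give no value per library, so neither the size of these differences nor the spread between the 2 libraries of a group could be measured.

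Promoter windows of 6 members, chosen by their peaks, are printed to show the sequence at their gene starts. Lyz1, Myof and Gpr65 hold the MDM-listed peaks, Lyz2 is the tandem paralogue beside Lyz1, and S100a6 and Anxa2 have the gene-edge peaks built from the most library-level peaks. The listed peaks of Lyz1 and Gpr65, and the gene-edge peak for which Anxa2 was chosen, lie outside the printed windows. The windows are RefSeq sequence of GRCm38.p6, the assembly behind mm10, from 250 bases before to 50 after the annotated start. They are read 5′ to 3′ on the gene's own strand. Capitals mark letters of the motifs searched on both strands, which were GAGGAA for PU.1, the master factor of myeloid cells, TTGCNNAA for C/EBP, TGANTCA for AP-1, TGTGGT for RUNX factors, GGGCGG for the KLF and SP families, TATAAA for the TATA box, and the repeat bound by interferon regulatory factors (IRF).
Lyz1: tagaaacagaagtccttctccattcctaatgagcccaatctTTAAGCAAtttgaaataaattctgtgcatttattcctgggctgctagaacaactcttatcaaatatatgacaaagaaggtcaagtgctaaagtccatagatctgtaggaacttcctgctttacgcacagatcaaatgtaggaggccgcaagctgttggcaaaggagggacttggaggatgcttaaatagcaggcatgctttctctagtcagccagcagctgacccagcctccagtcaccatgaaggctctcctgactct
Lyz2: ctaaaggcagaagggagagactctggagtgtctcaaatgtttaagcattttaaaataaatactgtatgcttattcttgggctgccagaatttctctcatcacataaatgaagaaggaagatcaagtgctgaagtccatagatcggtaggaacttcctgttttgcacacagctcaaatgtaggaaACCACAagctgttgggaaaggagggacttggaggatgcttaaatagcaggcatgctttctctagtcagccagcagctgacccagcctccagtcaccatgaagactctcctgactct
Myof: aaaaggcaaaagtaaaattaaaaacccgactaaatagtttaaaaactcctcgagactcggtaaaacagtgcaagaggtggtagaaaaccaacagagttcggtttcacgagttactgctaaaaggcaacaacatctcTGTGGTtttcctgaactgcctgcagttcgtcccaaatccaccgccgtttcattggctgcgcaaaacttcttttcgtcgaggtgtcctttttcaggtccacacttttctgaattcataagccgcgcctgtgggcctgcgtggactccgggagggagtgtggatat
Gpr65: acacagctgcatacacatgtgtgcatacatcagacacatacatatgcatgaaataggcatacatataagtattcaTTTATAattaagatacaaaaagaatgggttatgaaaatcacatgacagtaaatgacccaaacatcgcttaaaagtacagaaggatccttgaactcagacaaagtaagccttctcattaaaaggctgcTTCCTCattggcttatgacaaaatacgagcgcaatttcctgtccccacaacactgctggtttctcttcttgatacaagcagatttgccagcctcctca
S100a6: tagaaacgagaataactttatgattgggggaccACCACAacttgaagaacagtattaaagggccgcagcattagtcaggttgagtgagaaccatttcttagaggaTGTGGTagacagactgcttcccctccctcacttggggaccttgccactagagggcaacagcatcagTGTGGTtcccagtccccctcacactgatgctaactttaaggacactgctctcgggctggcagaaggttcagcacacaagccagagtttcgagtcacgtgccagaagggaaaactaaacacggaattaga
Anxa2: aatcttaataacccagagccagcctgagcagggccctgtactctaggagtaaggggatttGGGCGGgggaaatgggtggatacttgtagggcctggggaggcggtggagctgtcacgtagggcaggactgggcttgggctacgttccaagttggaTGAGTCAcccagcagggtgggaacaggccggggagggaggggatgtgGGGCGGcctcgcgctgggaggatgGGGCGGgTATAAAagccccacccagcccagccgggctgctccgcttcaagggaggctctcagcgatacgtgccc

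These 6 windows lie in mm10 at chr10:117292819-117293118 on the minus strand (Lyz1), chr10:117282223-117282522 on the minus strand (Lyz2), chr19:38043528-38043827 on the minus strand (Myof), chr12:98268385-98268684 on the plus strand (Gpr65), chr3:90612644-90612943 on the plus strand (S100a6) and chr9:69453433-69453732 on the plus strand (Anxa2). Merged peaks covered all 300 bases at Myof and S100a6, 296 at Gpr65, 140 at Anxa2, 92 at Lyz2 and 0 at Lyz1. The Lyz1 window held 1 motif match, C/EBP letters, and that of Lyz2 held 1, RUNX letters read on the opposite strand. The Myof window also had a single match, TGTGGT, and S100a6 had the RUNX letters 3 times. At Gpr65 the PU.1 letters stood on the opposite strand, from 48 to 43 bases before the start (positions -48 to -43), with a TATAAA match farther upstream. Anxa2 held GGGCGG 3 times, TGAGTCA once and TATAAA from position -17 to -12. Its window was the most GC-rich of the 6, at 63.7% G and C, and that of Gpr65 the least, at 38.3%, where the median over all windows was 52.7%. No match overlapped another in these 6 windows. A match of letters is not evidence that a factor binds there.

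Myof was the member whose promoter itself was MDM-listed. Myof encodes myoferlin, a ferlin that takes part in membrane fusion and repair. The gene (NCBI gene 226101, chromosome 19, 37899036 to 38043577, minus strand) had 16 merged peaks, of which 1 was at a gene edge, 12 inside the gene and 3 outside it. The listed peak, chr19:38043419-38043833, was 415 bp wide, combined 4 library-level peaks (subpeaks) and had its centre 49 bp from the annotated start, so that it contained the whole window printed above. At a gene edge of any protein-coding gene were 5 of the 108 MDM-listed peaks and 122 of the 1104 YSM-listed peaks. Of all merged peaks on assembled chromosomes, 21.5% were. Over promoter windows, 2 protein-coding genes had an MDM-listed peak, Myof and Ifi47, an interferon-inducible GTPase gene, among 27 members and 17464 other genes with a window. Myof was already known to hold a listed peak when the members were named, so these 2 counts cannot be compared as shares. YSM-listed peaks lay over the windows of at most 77 other genes and of 0 members. The remaining 15 Myof peaks were in neither list. Of these, 8 combined at least 4 subpeaks, and the 2 farthest lay 84398 and 88962 bp from the gene on the side of its end. Myof is long, at 144542 bp, and its 16 peaks came to 1.11 per 10 kb of gene.

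Gpr65 held its MDM-listed peak far beyond the gene. Gpr65 is a receptor that senses extracellular protons and is found on leukocytes. The gene (NCBI gene 14744, chromosome 12, 98268635 to 98276722, plus strand) is 8088 bp long and had 16 merged peaks, more than 96.8% of protein-coding genes. Of these peaks 2 were at the gene start, 0 were elsewhere inside the gene and 14 were outside it, all but 1 of them on the far side, beyond the gene's end. The listed peak, chr12:98319996-98320228, combined 4 subpeaks and lay 43390 bp beyond the gene's end and 51477 bp from its start. The next nearest protein-coding gene, Galc, was 60653 bp away. An unlisted peak of 1 subpeak, chr12:98320233-98320433, followed after 4 bp. The peak with the most subpeaks of all 187 stood at the other side, 2527 bp before the start, with 8 subpeaks over 512 bp, and was not listed. Of the 16 peaks, 6 combined at least 4 subpeaks. Nearest-gene assignment does not show that a site 43 kb away acts on Gpr65.

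The lysozyme genes lie next to each other, and the MDM-listed peak was upstream of Lyz1. Lyz2 encodes the lysozyme of monocytes, macrophages and neutrophils, and Lyz1 the form best known from Paneth cells. Both are on the minus strand of chromosome 10 (Lyz1, 117287795 to 117292868; Lyz2, 117277541 to 117282272), 5523 bp apart, and had 4 merged peaks each. The listed peak, chr10:117301866-117302070, combined 4 subpeaks over 205 bp and lay 9100 bp before the start of Lyz1 and 19696 bp from Lyz2. Lyz2 had a peak of 4 subpeaks with its centre 70 bp from its start, whereas no merged peak touched the start window of Lyz1. The Lyz1 peak at a gene edge was at the gene's end, 4367 bp from the start. The 2 promoter windows matched at 254 of 310 aligned positions (81.9%). Reads from stretches that the paralogues share can be lost or placed at either copy, and no mapping filter is stated, so the difference between the 2 gene starts is uncertain.

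**Figure D1:**
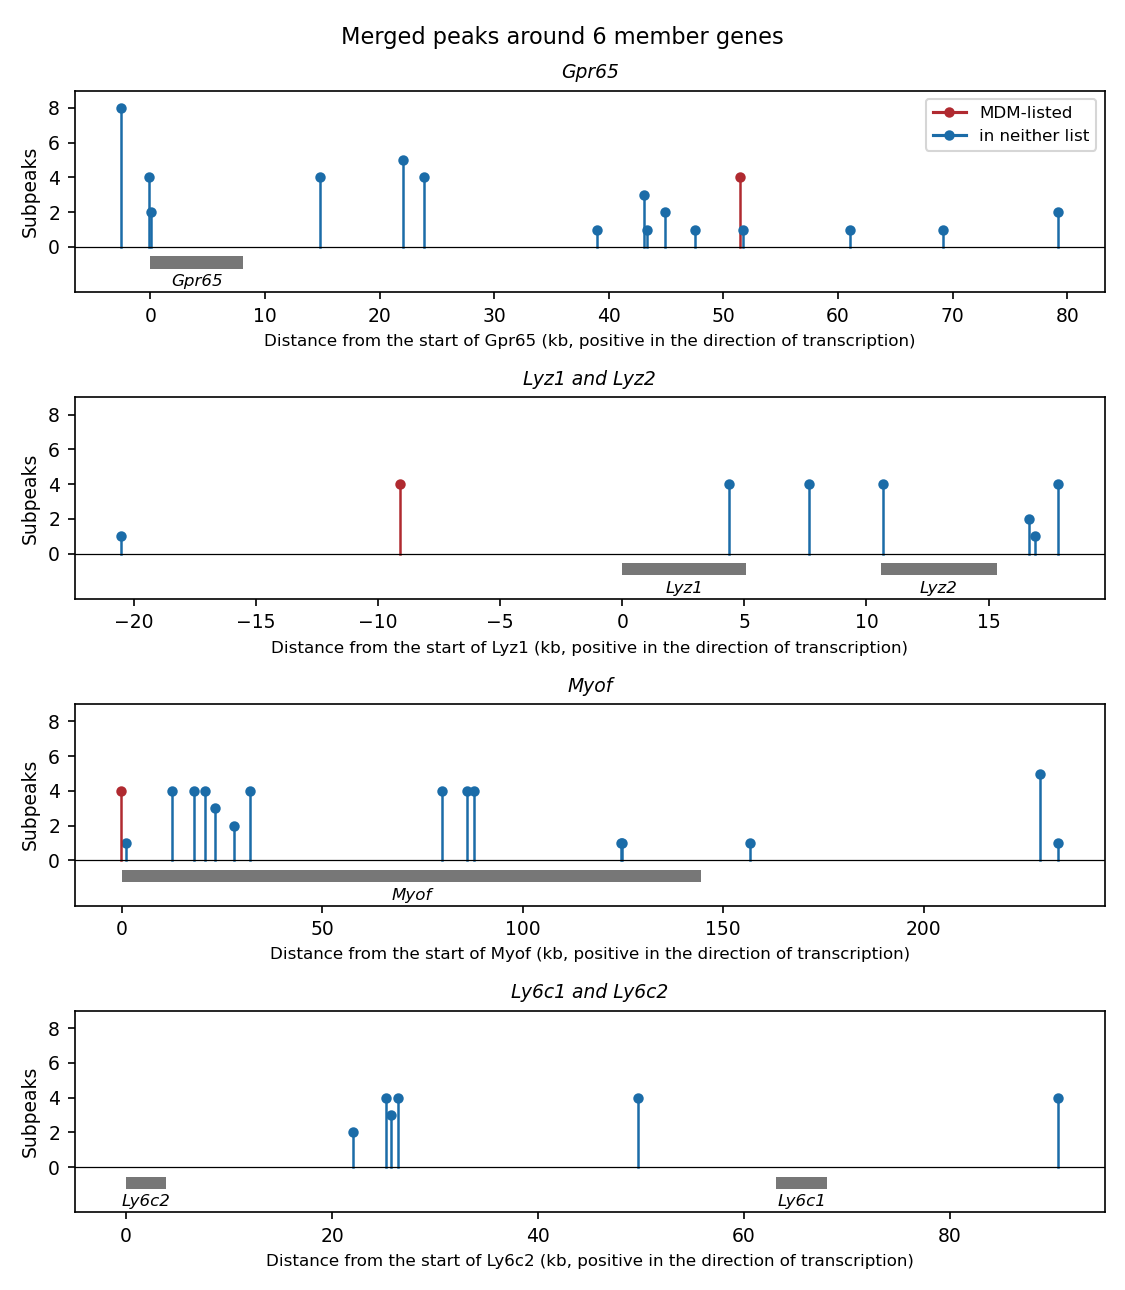
Merged peaks around Gpr65, Lyz1 and Lyz2, Myof, and Ly6c1 and Ly6c2. The horizontal axis is the distance in kb from the start of the named gene, positive in the direction of transcription, grey bars are gene bodies, and each stem is 1 merged peak whose height is its number of subpeaks. Red stems are the 3 MDM-listed peaks, far beyond Gpr65, upstream of Lyz1 and at the start of Myof; no stem stands at the starts of Lyz1, Ly6c1 or Ly6c2.

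Ly6c1 and Ly6c2, surface proteins of which Ly6C2 marks classical monocytes, had no merged peak at or inside either gene. Ly6c1 (chromosome 15, 75044018 to 75048920) had 2 peaks, 13419 and 22448 bp away, and Ly6c2 (75108161 to 75112066) had 4, between 18085 and 22519 bp away. Those at Ly6c2 lay between the genes, which are 59241 bp apart. Of the 6 peaks 4 combined 4 subpeaks, and 0 were listed. All 4 annotated start windows of the pair were free of merged peaks. The windows of Ly6c1 and Ly6c2 shared up to 62.9% of aligned positions. As at the lysozyme genes, reads from stretches that paralogues share can be lost, and no mapping filter is stated. An absence of peaks here is therefore uncertain. When genes of every annotated kind competed for the nearest peak, neither gene kept one.

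The S100 genes encode small calcium-binding proteins. S100a4 had 1 merged peak, S100a6 had 2, S100a11 had 2 and S100a10 had 6, and none was listed. Each of these genes had a peak with its centre within 1000 bp of a gene end. The S100a6 peak, chr3:90612615-90613061, combined 7 subpeaks over 447 bp and contained the whole printed promoter window, while the S100a4 peak, chr3:90603551-90603945, combined 3, so that a call was missing in 1 or more libraries. S100a10, the partner of Anxa2 in a membrane-bound complex, had a peak of 4 subpeaks at its lower-coordinate end, and 2 peaks of 1 subpeak that lay 29070 and 43351 bp away. S100a11 had a peak of 4 subpeaks 9 bp from its start.

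Annexins and their partners were open mainly inside the long genes of the group. The 4 genes held 34 peaks, of which 4 were at gene edges, 24 inside and 6 outside. Anxa1 and Anxa2 encode proteins that bind membrane phospholipids in the presence of calcium. Anxa2 had 3 peaks, of which that at chr9:69454005-69454356 combined 7 subpeaks and lay 497 bp from the start, beside a peak of 4 subpeaks 33 bp from it. Anxa1 had a peak of 4 subpeaks 8 bp from its start. Ahnak, a very large scaffold protein that binds the complex of S100a10 and Anxa2, had 12 peaks, 11 inside the gene and 0 at its annotated start. Of the Ahnak peaks 9 combined at least 4 subpeaks, with a maximum of 7 at chr19:9065863-9066286. Apart from the Myof promoter, no peak of this group was listed.

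Among the receptors and enzymes, Cd44 had the most peaks of any member. Cd44, the receptor for the matrix polysaccharide hyaluronan, had 17 merged peaks, with 1 at the gene start, 12 inside and 4 outside. Of these 7 combined at least 4 subpeaks and 10 fewer. Clec12a, an inhibitory lectin receptor of myeloid cells, had 8 peaks, with 1 of 6 subpeaks at its start (chr6:129349983-129350232). Gpr183, an oxysterol receptor that guides leukocyte migration, had 4, all also inside Ubac2, which overlaps it, and the peak at its start combined 1 subpeak. Ace, angiotensin-converting enzyme, had 4 peaks of at most 3 subpeaks, so none can have been called in every library. Gda, a guanine deaminase, had 9, of which 7 were outside the gene. Over the 5 receptors and surface enzymes (Clec12a, Cd44, Gpr65, Gpr183 and Ace), 36.7% of 49 peaks combined at least 4 subpeaks, the lowest share of the 10 role groups. The highest was 77.8% of 9 peaks at the Tmem176 pair, and 57.7% of all other merged peaks did.

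Host-defence genes differed in where they were open. Cybb, the catalytic subunit of the phagocyte NADPH oxidase, is a gene of 52515 bp and had 12 peaks. Of these, 2 were at a gene edge, 8 were counted as inside the gene and 2 lay outside it. Its annotated start window lies inside the RefSeq gene interval and was overlapped by a peak of 4 subpeaks (chrX:9469238-9469491). Plac8, a small cysteine-rich protein of myeloid cells, had 7 peaks, 4 inside and 3 outside, and 0 over its 2 start windows. Fcnb, ficolin B, a lectin that starts complement activation, had a single peak of 4 subpeaks 7328 bp away. Napsa, an aspartic protease, had a peak of 4 subpeaks 17 bp from the gene and a second of 3 subpeaks. None of these 22 peaks was listed.

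Matrix and cytoskeletal genes had open gene ends and, at Fn1 and Thbs1, remote sites. Vim, the intermediate filament protein vimentin, had 3 peaks of 4 subpeaks within 573 bp of its start. Fn1, fibronectin, had a peak of 5 subpeaks over the higher-coordinate end of the gene, and its other 5 peaks formed a group between 75873 and 82590 bp away, where the next protein-coding gene, Atic, was at least 149750 bp off. Thbs1, thrombospondin 1, had 3 peaks at gene edges and 3 between 58071 and 85856 bp away. A further Thbs1 site of 4 subpeaks at 100021 bp fell just outside the distance limit, while the farthest member peak inside it was the Myof site at 88962 bp. In all, 21 peaks nearest to a member lay beyond the limit. Emilin2, a matrix glycoprotein, had 10 peaks, 7 of them with at least 4 subpeaks. None of the 26 peaks of these genes was listed.

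The Ifitm and Tmem176 genes form tandem groups. Ifitm proteins restrict the entry of viruses into cells. Ifitm3 had 6 peaks, Ifitm6 had 4 and Ifitm2 had 3, and 6 of the 13 were at gene edges. The starts of Ifitm3 and Ifitm6 were each overlapped by a peak of 4 subpeaks, while the annotated start window of Ifitm2 was free of peaks. Tmem176a and Tmem176b encode intracellular membrane proteins of macrophages and dendritic cells. Tmem176a was the member with 0 peaks. Its RefSeq interval (48841483 to 48845364 on chromosome 6) lies within that of Tmem176b (48833811 to 48845948), no peak centre fell inside it, and the nearest centre, at 48841239, was inside Tmem176b. The 9 peaks went to Tmem176b, and 7 of them combined at least 4 subpeaks. A peak of 6 subpeaks, chr6:48841119-48841359, overlapped start windows of both genes, which are read in opposite directions. None of the 22 peaks was listed.

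**Figure D2:**
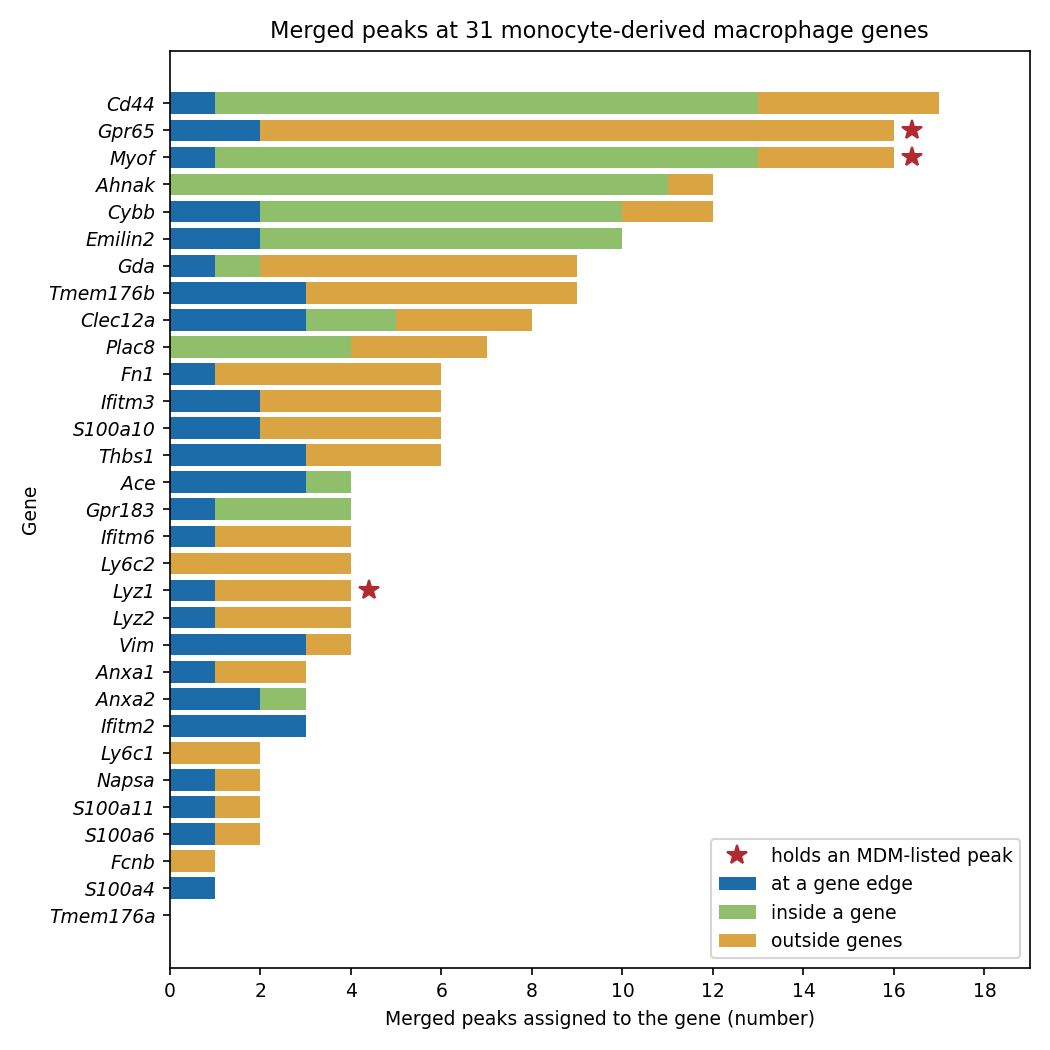
Number of merged peaks assigned to each of the 31 genes (horizontal bars), split by place: at a gene edge (centre within 1000 bp of an end of any protein-coding gene), inside a gene, or outside genes. Stars mark the 3 genes with an MDM-listed peak; counts run from 0 at Tmem176a to 17 at Cd44.

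The median member had 4 merged peaks. The median was 2 over the other 21865 protein-coding genes, 5 over 40 other monocyte genes and 6 over 28 microglial marker genes. At least 1 peak was found at 30 of 31 members (96.8%), 69.7% of the other protein-coding genes, 82.5% of the other monocyte genes and 96.4% of the microglial genes. The members were somewhat shorter, with a median length of 12138 bp against 17168 bp. Peaks were unevenly shared out, since 9 members with 8 or more peaks held 109 of the 187. With neighbours within 1000 bp joined, the 187 peaks made 151 sites, again with a median of 4 per member. Of the 27 members with a RefSeq promoter window, 19 (70.4%) had a merged peak over at least 1 window, against 52.7% of the other 17464 genes. For peaks of at least 4 subpeaks the shares were 59.3% and 48.8%. The 8 members without a peak over a window were Ly6c1, Ly6c2, Lyz1, Plac8, Ifitm2, Emilin2, Fcnb and Ahnak, of which Emilin2 had a peak of 5 subpeaks centred 305 bp from a start. Fn1, Napsa, Thbs1 and S100a10 had no window in the table.

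Member peaks were divided by place. Of the 187, 43 (23.0%) were at a gene edge, 63 (33.7%) inside a gene and 81 (43.3%) outside genes. Of the 74457 other merged peaks on assembled chromosomes, 21.5%, 45.8% and 32.7% were. Among other peaks within 100 kb of a gene, the range in which members could be assigned, 22.6%, 48.0% and 29.4% were. No test was made of these shares, because peaks of 1 gene are not independent. With any peak within 50 kb of a member counted, 24.1% were at a gene edge, 41.4% inside and 34.5% outside, so the values depend on how peaks are assigned. Of the 81 peaks outside genes, 17 were within 5 kb of their gene, 31 between 5 and 20 kb, 20 between 20 and 50 kb and 13 beyond 50 kb. Their median distance was 15765 bp, against 15141 bp for the other peaks. Where the strand was known, 24 gene-edge peaks of 18 members were near the upstream end of the gene interval and 9 of 7 members near the downstream end. The upstream count includes an Ifitm2 peak that lay 3481 bp from the annotated start of that gene. Another 3, assigned to Tmem176b, were near the edge of another gene, and for 7 the strand was not known.

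Subpeak number was close to that of the rest of the data. Each merged peak carries the number of library-level peaks joined into it, so a peak with at most 3 lacked a call in at least 1 library. The median was 4 for member peaks and 4 for all others. At least 4 subpeaks were combined in 54.0% (101 of 187) of member peaks and 57.7% of the others, and exactly 4 in 46.0% and 46.4%. Single-subpeak intervals made up 21.4% and 20.2%. At gene edges 58.1% (25 of 43) of member peaks and 73.8% of the others combined at least 4, inside genes 57.1% (36 of 63) and 52.7%, and outside genes 49.4% (40 of 81) and 54.2%. The 3 MDM-listed member peaks had 4 subpeaks each, the median of the whole MDM list, while the median of the YSM list was 2. The lists were made from the same libraries as the subpeaks, so the 2 measures are not independent.

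**Figure D3:**
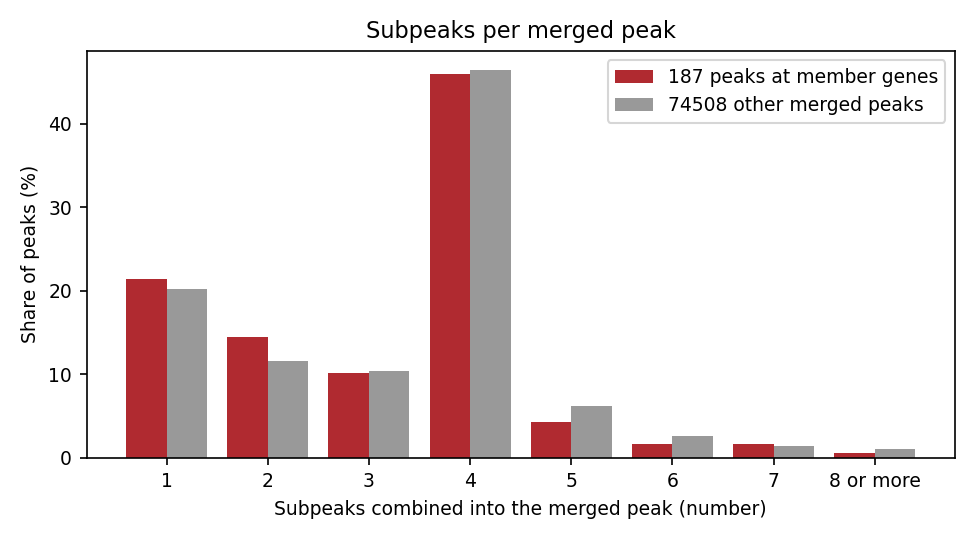
Share of merged peaks (percent, vertical axis) by the number of subpeaks combined into the peak (horizontal axis), for the 187 member peaks (red) and the 74508 other merged peaks (grey). In both sets 4 subpeaks is the most frequent number, at 46.0% and 46.4%.

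The nearest comparable sets were 40 other genes of monocytes and their progeny and 28 microglial marker genes, with no gene shared with the members. The 40 include Csf1r and Spi1, which are also among the macrophage markers checked below, so that set is not specific to monocytes. The other monocyte genes had 293 peaks, of which 1 was MDM-listed (0.341%), at Klf2, and 0 were YSM-listed. The microglial genes had 214 peaks, of which 0 were MDM-listed and 21 were YSM-listed (9.81%), at Sall1, Sall3, Nav3, Sparc, Ecscr and Adgrg1. The members had 3 and 0. Start windows were overlapped in 58.8% of 34 other monocyte genes, 76.5% of 17 microglial genes and 70.4% of 27 members. Outside genes lay 56.0%, 38.8% and 43.3% of the peaks. These gene lists, like the members, were chosen with earlier results of these data known. Their counts of listed peaks are therefore descriptions and not independent evidence. No set test was run, so these values are set side by side and no difference is claimed.

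**Figure D4:**
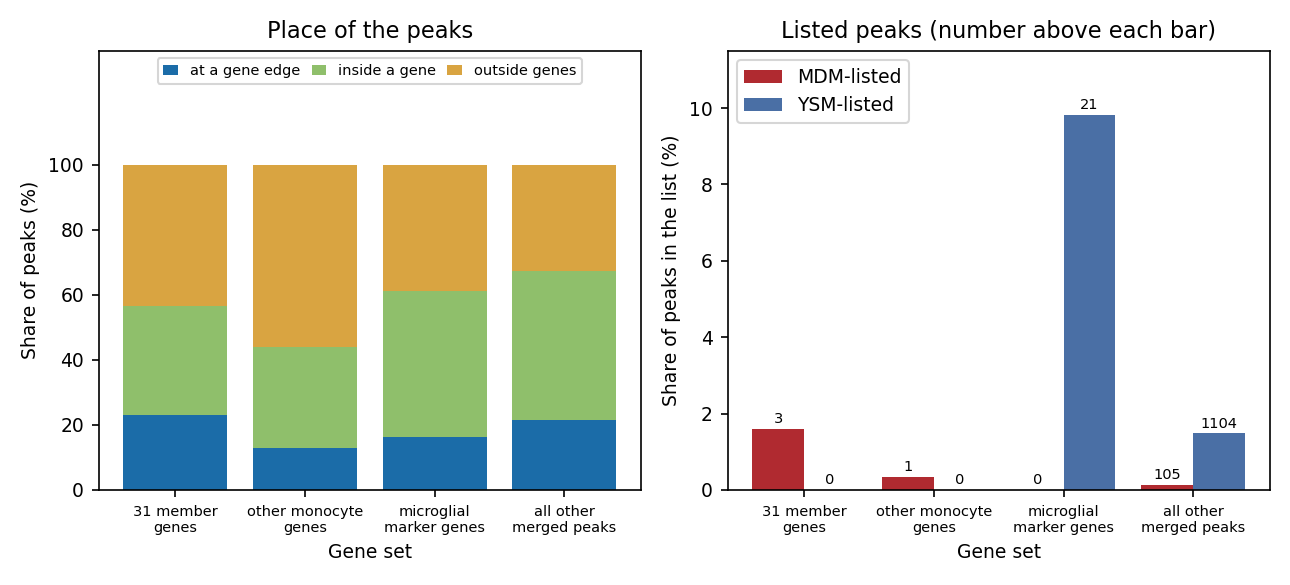
Left, share of peaks (percent) at a gene edge, inside a gene and outside genes for the 31 member genes, 40 other monocyte genes, 28 microglial marker genes and all merged peaks not at a member. Right, share of peaks (percent) in the MDM list (red) and the YSM list (blue), with the number of listed peaks above each bar; the members have 3 and 0, the microglial genes 0 and 21. The gene sets were chosen with earlier results of these data known.

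Motif letters were counted in all member promoter windows. GAGGAA was found, on either strand, in 18 of 35 member windows (51.4%), belonging to 15 of 27 members, and in 28.3% of all 32851 windows. Cybb, Clec12a, Cd44, Gpr65 and both Ly6c genes were among the 15. C/EBP letters were found in 7 of the 35 member windows, against 10.8% of all windows, RUNX letters in 25.7% of member windows and 16.8% of all, AP-1 letters in 14.3% and 7.81%, IRF letters in 11.4% and 3.44%, and TATAAA in 25.7% and 13.6%. GGGCGG was in 25.7% of member windows and 35.7% of all. Among the 10986 windows overlapped by a merged peak of at least 4 subpeaks, the shares were 27% for GAGGAA, 7.84% for C/EBP, 12% for RUNX, 4.40% for AP-1, 3.13% for IRF, 5.99% for TATAAA and 67.7% for GGGCGG. IRF letters were in the windows of Ifitm2, Ifitm3, Cybb and Emilin2. Some windows of the same gene overlap and tandem paralogues share sequence, so the 35 are not independent and no test was made.

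The sorted cells were checked at markers of macrophages and of other cell types. A merged peak lay within 1000 bp of a gene end at 8 of 10 macrophage markers, 2 of 10 neutrophil, 3 of 9 T and NK cell, 1 of 6 B cell, 2 of 6 neuron, 2 of 4 astrocyte, 2 of 4 oligodendrocyte and 1 of 4 endothelial markers. Peaks of at least 4 subpeaks were there at 7, 1, 2, 0, 1, 2, 2 and 0 of these genes. The same count was not made over all genes. By a different measure, a merged peak over a start window, 52.7% of protein-coding genes with a window, other than the members, had one. On that measure 4 of 6 macrophage, 2 of 10 neutrophil and 1 of 8 T and NK cell markers with a window had one. The counts were 0 of 2 for B cells, 1 of 5 for neurons and 2 of 3 for astrocytes. They were 0 of 2 each for oligodendrocytes and endothelium. The marker lists are short, so no cell type is called from them. Several members, among them Lyz2, Fcnb and Cybb, are also genes of neutrophils, and a share of other cells in either group was not tested.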

How the data were processed

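Accessible chromatin was profiled by Omni-ATAC in 4 libraries of sorted mouse brain macrophages. Per the submitters' processing notes, the authors ran HOMER and Picard besides Trimmomatic 0.39 and Bowtie2 2.2.5 on mm10, and per the file headers peaks were called per library and merged with HOMER mergePeaks. The authors deposited 2 lists of differential peaks, named for DESeq2 and for the MDM or YSM group. The list thresholds and the Tn5 read shift were not given in the sources used here. Library depth was not analysed. A further number in the lists, above 1 for 1 MDM-listed and 27 YSM-listed peaks, has no stated meaning and was not used.

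Subpeak numbers were read from the peak names; all 15127 intervals with 1 subpeak were 201 bp wide. Peaks were assigned with Python 3.11.15 and pandas 2.3.3 to 21896 protein-coding genes of RefSeq GRCm38.p6. A peak inside several genes went to the gene with the nearest end, then the shorter one. Gene starts and strand came from the RefSeq promoter table. Assignment was tested on 1200 simulated peaks around 300 widely spaced genes, all placed correctly. Those genes did not overlap, so the rule for peaks inside several genes and the choice between close neighbours were not tested. Listed peaks matched merged peaks by exact interval.

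The members and lists were chosen with earlier results of these data known. Members with a listed peak, the most peaks or the most subpeaks at a gene edge, and tandem families, were chosen for closer description. Many of their peaks, among them those of Cd44, are given only by count and place. Shares and medians carry no test, since no values per library were used.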

Additional observations from a re-analysis of the deposited data

How the results depend on the processing

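The alternatives gave 77 values over 10 results. Of these 66 stayed within 1.5 times the first value (counts and medians) or within its exact 95% binomial interval (shares), including the count of 3 MDM-listed peaks under each alternative run for it. Several alternatives could not change that count. The 3 peaks had 4 subpeaks each, lay within 50 kb of their gene and were not at Cd44. The 50 kb limit, the subpeak minimums and leaving out Cd44 therefore kept them by design. Matching by overlap could not lower the count either. With genes of every annotated kind, the share of member peaks outside genes was 32.9% (24.0% of the other peaks), and Ly6c1, Ly6c2 and Fcnb had no peak. With a gene edge of 500 bp the gene-edge share was 15.5% (16.8% of the other peaks). With at least 2 subpeaks, 68.7% of member peaks had at least 4, and with neighbours stitched 65.6% did. With at least 4 subpeaks there were 101 member peaks and a median of 2 per member. With any peak within 50 kb of a member there were 290 peaks, a median of 11 per member, 34.5% outside genes, 41.4% inside and 1 YSM-listed peak, nearest to Cops4 and within reach of Plac8. These shifts follow from which peaks each alternative counts. No paired analysis was possible because the files used here give no value per library, and for the same reason no library could be left out. The depth behind each peak is unknown.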
